A study of Bos taurus with 8 samples.

Results

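Host receptors for the HIV-1 proteins gp120 and TAT were followed across 8 arrays of cultured bovine retinal cells. The members are 8 genes: CD4, CXCR4, LRP1, KDR, FLT1, SDC2, SDC4 and GRIN1. They were found as the probes whose gene name in the scanner files is one of these symbols, which gave 17 of the 51282 probes on the array, for 6 of the 8 genes, among 17071 genes that the array names in all. LRP1 has no probe under that symbol, but 3 probes carry its bovine gene ID or accession, and 1 further SDC4 probe was found by accession, so 4 probes were added by identifier and are named as such. No probe was found for GRIN1. The cells are given as primary bovine Müller glia, the main glial cell of the retina, grown in DMEM for 18 to 21 days. The text on RNA extraction calls the same cells astrocytes. The sample titles give 3 groups: TAT, a 24 h treatment at 100 ng/ml (3 arrays, letters A, B and C), gp120, a 24 h treatment at 60 ng/ml (3 arrays, A, B and C), and control (2 arrays, A and B). Grouping rests on these titles, since the treatment text, the same for all samples, names both proteins and does not separate them. The labels do not say whether the letters mark separate cultures or animals, so p-values here measure only the spread between these samples, which may be technical.

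gp120 is the surface part of the viral envelope. It binds CD4 first and then a chemokine receptor, of which CXCR4 is one, and this opens the way to membrane fusion. TAT is the viral transactivator, is released by infected cells, and attaches to heparan sulfate chains such as those on the syndecans SDC2 and SDC4. It is taken up through LRP1, a large endocytic receptor, engages the VEGF receptors KDR and FLT1 on endothelial cells, and acts on NMDA-type glutamate receptors, whose obligate subunit is encoded by GRIN1. These roles were worked out mainly with human or rodent proteins, and binding to the bovine proteins was not measured here. Which of these receptors the cultures express, and whether either protein changes their RNA, is the question addressed here.

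Signals are given as log2 of the processed intensity minus the array's 75th percentile, so that 0 is the level of that percentile on the same array and 1 unit is a 2-fold step. "Well above background" is the flag that the scanner software sets per spot. Of all probes, 53.8% were well above background on all 8 arrays and 28.1% on none. The labelled cell type was checked against marker lists. Of 10 Müller glia markers 9 had a probe and 6 were well above background on all 8 arrays, among them VIM, GLUL and DKK3, while CA14 was on none. Chosen after their values were seen, RLBP1, a defining marker, was well above background on 2 arrays and KCNJ10 on 1. All 10 microglia and macrophage markers were well above background on all 8 arrays, among them C1QA, TYROBP and CD14. So were 6 of 9 endothelial, 5 of 6 fibroblast, 5 of 5 pericyte, 3 of 7 neuron, 2 of 6 T cell and 2 of 4 astrocyte markers, but 0 of 4 photoreceptor markers. The RNA thus held marker signal of several cell types, and fewer cells of a type and less RNA per cell cannot be told apart in such bulk samples. The slide's first row carried TAT A, gp120 A and both controls, the second the remaining 4 arrays, and a separate scan at a higher detector voltage was used for gp120 B and C. Arrays also differed by letter, but letter and row overlap. All A arrays lie in the first row and all C arrays in the second, so A against C cannot be told apart from the row. Of the B arrays, control lies in the first row and TAT and gp120 in the second. In limma with the group in the fit, 4033 probes (12.8%) differed between letters at an adjusted p under 0.05. At an unadjusted p under 0.05, 33.2% did so. This test was chosen after seeing the data.

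Of the 17 probes found by symbol, 10 were well above background on all 8 arrays, 5 on none and 2 on 1 array each, a pattern that 4.83% of all probes show. All 4 probes added by identifier were well above background on all 8. CXCR4 (2 probes), LRP1 (3 probes) and SDC4 (4 probes) were thus detected by every probe they have. SDC2 was detected on all arrays by 2 of 3 probes. CD4 was detected by 1 of 5 probes, KDR by 1 of 2 and FLT1 by 1 of 2. Probes of CD4, KDR and FLT1 thus differed in detection within 1 gene, and for CD4 and KDR each probe gave the same result in every group.

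**Figure D1:**
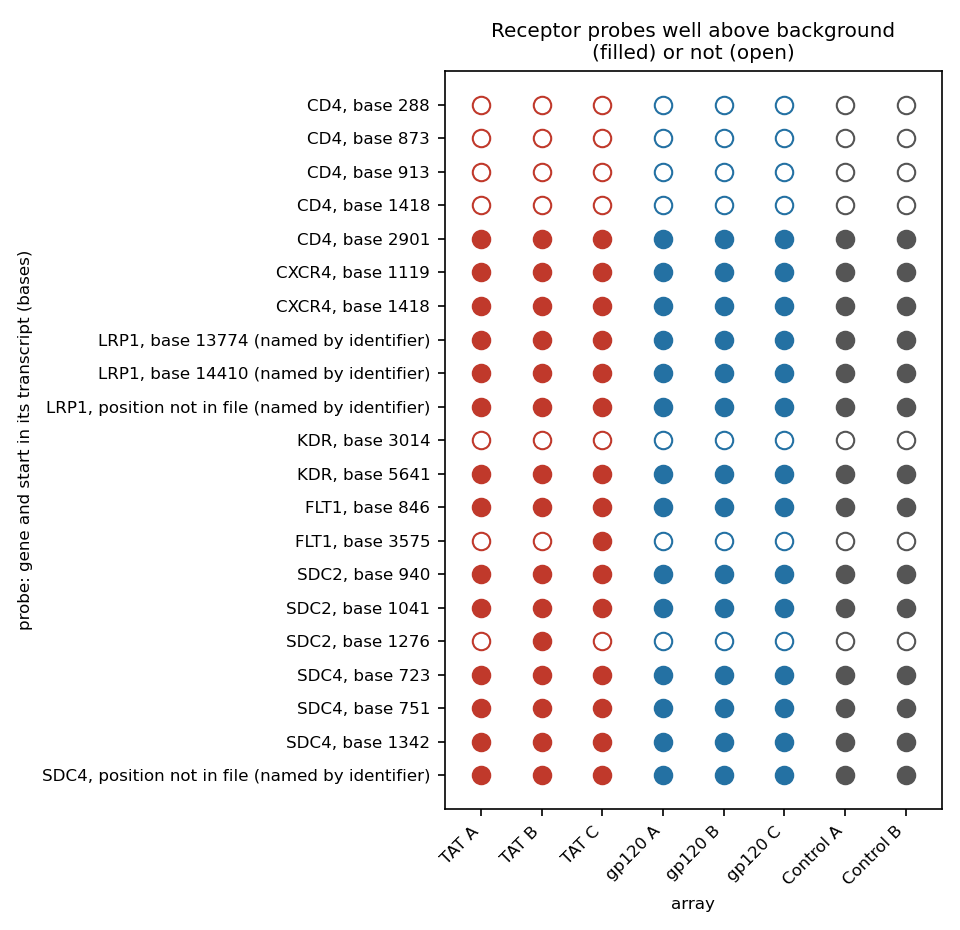
Probes of the receptors (rows, with the start of each probe in its transcript in bases) by array (columns). Filled circles mark probes well above background and open circles those that were not. The open rows are 4 of 5 CD4 probes, 1 KDR probe, and 1 probe each of FLT1 and SDC2 with a single filled circle on TAT C and TAT B.

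CD4 is the primary receptor for gp120, a surface glycoprotein of helper T cells that macrophages also carry. Its 5 probes lie on the minus strand of chromosome 5 in build HGSC Btau_3.1, the build named in the file headers. They are 60 bases long and start at bases 288, 873, 913, 1418 and 2901 of the CD4 transcript. The first 4 are shown because they were well above background on no array, and the end of the fifth because it was so on every array. Capitals at bases 873 and 913 mark the 20 bases these probes share, and capitals in the last mark the run of 6 A that ends it.
CD4 base 288, chr5:10623647-10623706: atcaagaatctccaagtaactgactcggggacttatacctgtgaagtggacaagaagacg
CD4 base 873, chr5:10621424-10621483: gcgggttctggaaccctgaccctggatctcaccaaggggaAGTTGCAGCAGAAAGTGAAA
CD4 base 913, chr5:10619062-10621443: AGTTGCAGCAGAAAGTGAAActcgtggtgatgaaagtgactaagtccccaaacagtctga
CD4 base 1418, chr5:10617662-10618067: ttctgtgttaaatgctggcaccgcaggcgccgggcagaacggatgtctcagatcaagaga
CD4 base 2901, last 30 bases, chr5:10615424-10615479: gaaaaatacaacagacttaactttAAAAAA
The probe at base 913 spans 2382 bases of the genome and the probe at base 1418 spans 406, so each 60-base probe crosses at least 1 intron. The position printed for base 2901 is that of the whole probe, not of the last 30 bases alone, and covers 56 of its 60 bases. This probe is the one nearest the transcript's 3′ end. Whether its final run of A is genomic was not tested.

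The 4 upstream CD4 probes had signals between -8.01 and -5.98 on the 8 arrays. The 95th percentile of 308 negative control spots lay between -7.70 and -6.67, depending on the array. The probes at bases 288 and 1418 were below their own array's percentile on every array, and the probe at base 913 lay on both sides of it. The probe at base 873 was above it on every array but gp120 C. It read -6.378 against -7.699 on TAT B, -6.711 against -6.715 on gp120 B and -6.805 against -6.67 on gp120 C. By the less strict flag for a positive and significant signal the 4 upstream probes passed on 1, 6, 4 and 0 arrays in the order of their positions. The probe at base 2901 read 0.89, 1.02 and -0.15 on the TAT arrays A, B and C and 0.66, 1.07 and 0.02 on the gp120 arrays A, B and C, against 0.36 and 0.06 on the control arrays A and B. Both proteins' A and B arrays were above both controls, while both C arrays were below them, so the groups overlapped.

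The CD4 probe at base 2901 differed by 0.38 (SE 0.43) between TAT and control and by 0.37 (SE 0.43) between gp120 and control, which is within the spread of the arrays (limma adjusted p = 1 and 0.966). With the letters as a block these differences were 0.70 (95% interval 0.16 to 1.25, adjusted p = 1) and 0.70 (0.15 to 1.25, adjusted p = 0.652), a 1.63-fold and a 1.62-fold higher signal. Within letters, TAT was above control by 0.53 (A) and 0.96 (B), and gp120 was above control by 0.30 (A) and 1.01 (B). Both comparisons use the same 2 control arrays. TAT and gp120 differed by 0.005 (interval -0.89 to 0.90). The labelling reaction was primed with oligo dT, which starts at the polyadenylated end of a transcript. The part of this priming in the difference between the probes was not tested. The T cell marker list gave 2 of 6 genes on all 8 arrays, and CD3E and CD3G, parts of the T cell receptor complex, were on none, whereas CD3D was on all 8.

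CXCR4 is the chemokine receptor for CXCL12 and a coreceptor for gp120. Both its probes, at bases 1119 and 1418 of the transcript (chr2:64219102-64219161 and chr2:64219401-64219460, plus strand), were well above background on every array. The probe at base 1418, which had the higher mean signal and stands for the gene, read 3.31, 3.63 and 3.23 on TAT arrays and 3.72, 2.94 and 3.37 on gp120 arrays, against 4.01 and 3.48 on control arrays. Control A was the highest array and gp120 B the lowest, and the groups overlapped. The difference was -0.35 (SE 0.31, interval -1.06 to 0.35) for TAT minus control and -0.40 (SE 0.31, -1.11 to 0.31) for gp120 minus control, neither past the threshold (limma adjusted p = 1 and 0.966). At base 1418 the intervals allow at most a 1.28-fold higher and a 1.24-fold higher signal. They include lower signals down to 0.48-fold and 0.47-fold of control. Within letters, TAT minus control was -0.70 (A) and 0.16 (B), of opposite sign, and gp120 minus control was -0.28 and -0.54.

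The second CXCR4 probe, at base 1119, read 2.29, 3.11 and 2.40 on TAT arrays and 2.63, 2.80 and 2.83 on gp120 arrays, against 3.05 and 2.68 on control arrays. Its differences were -0.26 (interval -0.945 to 0.42) for TAT and -0.11 (-0.79 to 0.57) for gp120 against control. They have the same sign as those of the first probe and are also within the spread, but both upper limits are higher than at base 1418. TAT minus gp120 was 0.05 (interval -0.59 to 0.68) at base 1418 and -0.15 at base 1119, so the probes did not give 1 direction. Microglia and macrophages carry CXCR4, and the summed level of their 10 markers ranged over 8.82 to 9.02 on TAT arrays and 8.60 to 9.03 on gp120 arrays, against 8.75 to 9.15 on control arrays. Their part in the CXCR4 values was not tested. Across the 8 arrays and among 11012 genes, those most like CXCR4 in pattern were VPS52 (Pearson r 0.974), FCER1G (0.96) and NPEPPS (0.955). FCER1G is 1 of the 10 macrophage markers, and no other marker of that list is among these 3 genes.

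**Figure D2:**
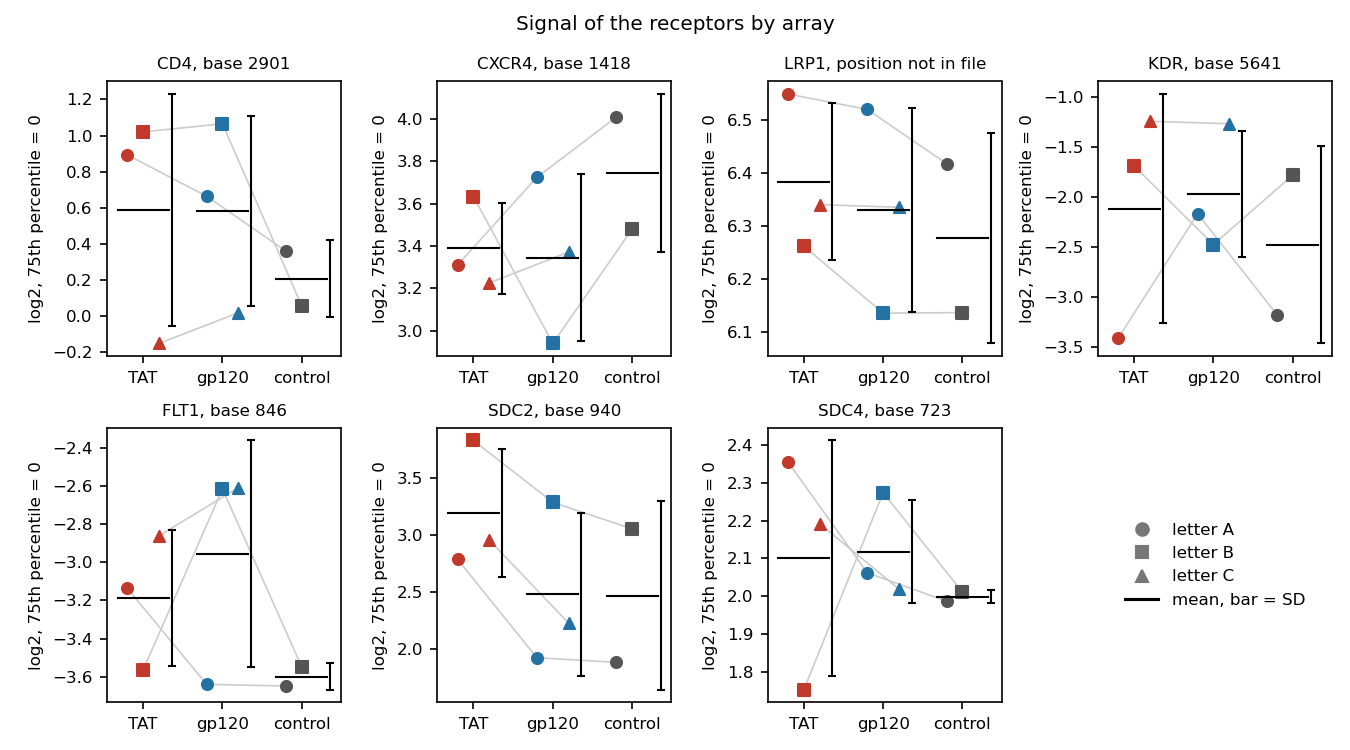
Signal of the probe that stands for each receptor (log2, array's 75th percentile at 0; each panel has its own axis) on TAT, gp120 and control arrays. Symbols give the replicate letter, grey lines join arrays of 1 letter, horizontal lines are group means and bars the SD. SDC2 falls along every grey line from TAT, and KDR is lowest on TAT A and control A.

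SDC2 and SDC4 are transmembrane proteoglycans whose heparan sulfate chains bind growth factors and, in human cells, TAT. SDC2 has 2 probes on the minus strand of chromosome 14 that were well above background on every array, at bases 940 (chr14:65772474-65772533) and 1041 (chr14:65772373-65772432), and 1 more at base 1276 of an expressed sequence tag with no genome position in the files. The probe at base 940 is printed because it stands for SDC2 and has the lowest unadjusted p of the receptor probes in the fit with the letters as a block.
SDC2 base 940, chr14:65772474-65772533: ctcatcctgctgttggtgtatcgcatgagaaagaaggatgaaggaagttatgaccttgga
It read 2.79, 3.83 and 2.96 on TAT arrays and 1.93, 3.29 and 2.23 on gp120 arrays, against 1.89 and 3.05 on control arrays. In each letter the TAT array was the highest, but B arrays of every group were above A arrays of every group, so the groups overlapped.

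At base 940 the same-letter differences were 0.90 (A) and 0.77 (B) for TAT minus control and 0.86 (A), 0.54 (B) and 0.73 (C) for TAT minus gp120, so that TAT was higher in 5 of 5 pairs. TAT A and TAT B each enter both comparisons, so the 5 pairs are not independent. Of all probes, 20.3% were higher in both TAT and control pairs and 13.5% in all 3 TAT and gp120 pairs. The share of probes with both patterns was not computed. LRP1 showed the same 5 of 5 pattern by 2 overlapping probes, whose differences are given with that gene. Without the letters in the fit, TAT minus control was 0.72 (SE 0.53, interval -0.51 to 1.95, limma adjusted p = 1), and TAT minus gp120 was 0.71 (SE 0.48, -0.39 to 1.81, adjusted p = 1). With the letters as a block they were 0.84 (SE 0.19, 0.40 to 1.29, adjusted p = 1) and 0.71 (SE 0.16, 0.33 to 1.09, adjusted p = 0.476), or 1.79-fold and 1.64-fold. The unadjusted p of the blocked fit was 0.00327 and 0.00345, values under 0.05 that 4.16% and 10.2% of all probes also reached in these comparisons. After adjustment over all probes SDC2 did not pass in either fit. gp120 minus control was 0.01 (interval -1.22 to 1.24) without the block and 0.13 (-0.32 to 0.58) with it. With the slide row as the block in place of the letters, TAT minus control fell to 0.24 (SE 0.56). TAT minus gp120 was then 0.71 (SE 0.42). In row 1 alone, where TAT A is the only TAT array, TAT minus control was 0.32. Both controls lie in row 1, and TAT B and C in row 2.

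The second SDC2 probe, at base 1041, read 1.44, 2.25 and 2.14 on TAT arrays and 1.03, 2.08 and 1.66 on gp120 arrays, against 0.72 and 2.51 on control arrays. Here control B was the highest array. Same-letter differences were 0.71 and -0.26 for TAT minus control and 0.41, 0.17 and 0.48 for TAT minus gp120. The TAT arrays were thus above gp120 in every letter by both probes, but above control in letter B by 1 probe alone. Its TAT minus control was 0.33 (SE 0.55), and its TAT minus gp120 was 0.35 (SE 0.50), both within the spread. Of 14 receptor probes 2 differed between letters past the threshold, where 12.8% of all probes did, and both were of SDC2 (adjusted p = 0.0137 at base 940 and 0.037 at base 1041), while CD4 base 2901 stood at 0.0552. At base 940, A arrays lay at 1.89 to 2.79, B arrays at 3.05 to 3.83 and C arrays at 2.23 to 2.96.

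Fibroblast and pericyte markers are given beside SDC2 because stromal cells carry it. All 5 tested fibroblast markers had a TAT minus control difference above 0, with a median of 0.82, and the summed level of the list was 6.98 to 7.65 on TAT arrays and 6.72 to 6.93 on gp120 arrays, against 6.54 and 6.72 on control arrays. On TAT arrays the fibroblast sum was lowest on B and highest on A, the reverse of SDC2 base 940. On gp120 and on control arrays the fibroblast sum was lowest on A, as SDC2 base 940 was. The 5 pericyte markers lay above 0 for TAT minus control (median 0.54) and for gp120 minus control (median 0.32), where SDC2 differed by 0.01. Their sums were 7.28 to 7.84 on TAT arrays and 6.93 to 8.00 on gp120 arrays, against 6.46 and 7.42 on control arrays. In every group the pericyte sum was lowest on A and highest on B, as SDC2 base 940 was. By limma, 0 genes of either list passed after adjustment, and at an unadjusted p under 0.05 2 fibroblast and 0 pericyte markers did for TAT minus control. The part of these cells in the SDC2 values was not tested. Genes most like SDC2 in pattern were PSMD8 (r 0.987), SYTL2 (0.982) and FILIP1L (0.975).

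The remaining SDC2 probe, at base 1276, was well above background on TAT B alone, at -3.25, and lay between -7.50 and -6.71 on the other 7 arrays. The authors' deposited table differs from the other SDC2 probes most on this array. That table holds 1 log2 value per gene name and array, and for gp120 B and C it equals, within 0.02 and after a shift per array, the mean of the spots well above background. In the authors' deposited table SDC2 stood at 2.46, 0.85 and 2.88 on TAT arrays and 1.70, 2.91 and 2.13 on gp120 arrays, against 1.60 and 3.08 on control arrays. TAT B is thus the lowest array in the table and the highest array at base 940. With the values of the authors' deposited table the fitted differences turn to -0.28 for TAT minus control and -0.19 for TAT minus gp120. On TAT B all 3 probes were well above background, on the other arrays 2 of 3, and a mean over them on the scanner values gave 1.36 on TAT B, not the table's 0.85. How the table was made for that array is not known.

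**Figure D3:**
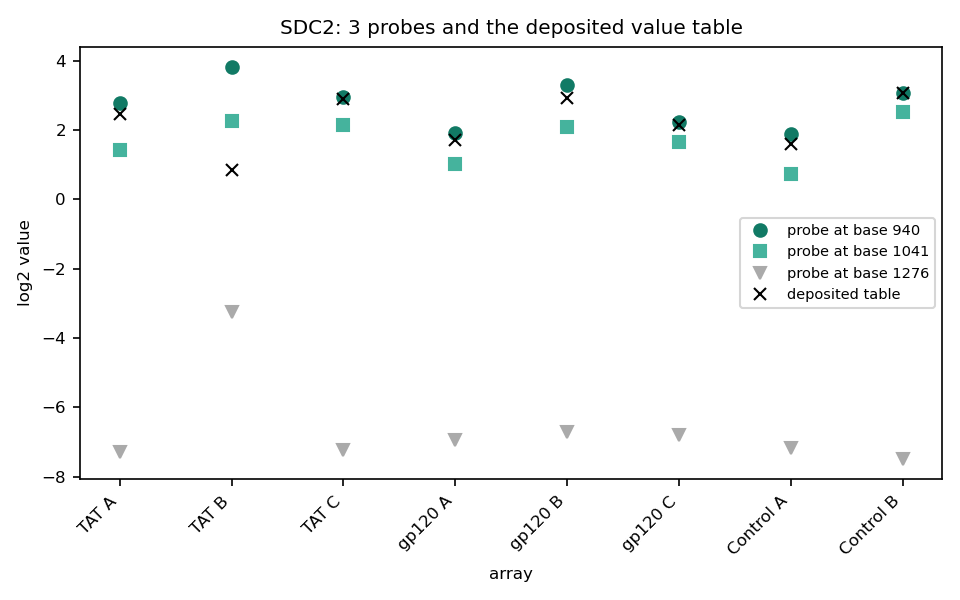
SDC2 on each array (log2): the 3 probes relative to the array's 75th percentile, and the deposited value table on its own scale. On TAT B the probe at base 1276 rises to -3.25 and the table value stands at 0.85, below every other array, while the probe at base 940 is at its highest, 3.83.

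SDC4 was well above background by all 4 probes on every array. 2 of them, at bases 723 (chr13:74433019-74433078) and 751 (chr13:74432991-74433050), share 32 bases and are no independent evidence. SDC4 at base 723, which stands for the gene, read 2.36, 1.75 and 2.19 on TAT arrays and 2.06, 2.27 and 2.02 on gp120 arrays, against 1.99 and 2.01 on control arrays. All 3 gp120 arrays were above both controls, a separation that 7.91% of all probes show, but gp120 C (2.019) was barely above control B (2.011). The difference in means was 0.12 (SE 0.25, interval -0.45 to 0.69, limma adjusted p = 0.97). TAT arrays lay on both sides of the controls, with a difference of 0.10 (interval -0.47 to 0.67). At base 751 the differences were 0.06 for TAT and 0.16 for gp120 against control. At base 1342 they were -0.34 and -0.19, and by the probe named by accession 0.34 and 0.61, so the 4 probes did not share a direction for TAT or for gp120, and none passed.

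LRP1, the endocytic receptor, was well above background by its 3 probes on every array. The probe at base 14410 of the transcript and the one with no position in the files share 35 of 60 bases and so are no independent evidence. The one with no position, which has the higher mean signal and stands for LRP1, read 6.55, 6.26 and 6.34 on TAT arrays and 6.52, 6.14 and 6.34 on gp120 arrays, against 6.42 and 6.14 on control arrays. It had the narrowest spread among the receptors, with all 8 arrays between 6.14 and 6.55. TAT minus control was 0.11 (SE 0.23, interval -0.42 to 0.64) and gp120 minus control was 0.05 (interval -0.48 to 0.58), so that changes beyond 1.55-fold up or below 0.75-fold lie outside the TAT interval. At base 14410 (chr5:60740173-60740232) LRP1 read 4.19, 4.19 and 3.79 on TAT arrays and 4.11, 4.00 and 3.38 on gp120 arrays, against 3.88 and 3.18 on control arrays. Its TAT minus control was 0.53 (SE 0.33), and 0.71 with the letters as a block (interval 0.15 to 1.27, limma adjusted p = 1). Its same-letter differences were 0.31 (A) and 1.01 (B) for TAT minus control and 0.08 (A), 0.19 (B) and 0.41 (C) for TAT minus gp120. By the overlapping probe with no position they were 0.13 and 0.13, and 0.03, 0.13 and 0.005, so TAT was higher in 5 of 5 pairs by both. As for SDC2, these pairs share TAT arrays and are not independent. At base 13774 (chr5:60740809-60740868) the differences were 0.23 for TAT and 0.49 for gp120, with same-letter differences of opposite sign (0.78 and -0.61 for TAT, 0.92 and -0.02 for gp120), and TAT was below gp120 in all 3 letters.

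KDR is the main signalling VEGF receptor of endothelial cells, and FLT1 binds VEGF tightly and limits its supply to KDR. KDR has 2 probes on the minus strand of chromosome 6. The one at base 5641 (chr6:73149108-73149167) was well above background on every array, and the one at base 3014 on none, with signals of -7.51 to -5.85. FLT1 has 2 probes on the plus strand of chromosome 12. The one at base 846 was well above background on every array, and the one at base 3575 on TAT C alone. By the less strict flag for a positive and significant signal, KDR base 3014 passed on 4 arrays and FLT1 base 3575 on 7. The KDR probe at base 3014 and both FLT1 probes are shown because detection differed by position. The KDR probe well above background on every array is nearer the transcript's 3′ end, and that of FLT1 is nearer its 5′ end. Capitals in the last mark 23 bases that it shares with another probe on the array, named by a different accession.
KDR base 3014, chr6:73163790-73163849: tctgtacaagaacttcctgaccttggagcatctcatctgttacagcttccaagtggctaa
FLT1 base 846, chr12:31620362-31620421: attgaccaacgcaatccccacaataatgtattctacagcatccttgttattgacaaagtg
FLT1 base 3575, chr12:31741190-31741249: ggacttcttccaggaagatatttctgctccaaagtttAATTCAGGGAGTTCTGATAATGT

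At base 5641 KDR read -3.41, -1.69 and -1.24 on TAT arrays and -2.17, -2.47 and -1.27 on gp120 arrays, against -3.17 and -1.78 on control arrays. The values follow the letters more than the groups: A arrays lay at -3.41 to -2.17, B arrays at -2.47 to -1.69 and C arrays at -1.27 to -1.24 (adjusted p of the letters 0.0979). Letters A and C cannot be told apart from the slide rows here. KDR had the widest spread among the receptors, with a TAT minus control difference of 0.36 (SE 0.71, interval -1.27 to 1.997) and a gp120 minus control difference of 0.51 (SE 0.71, -1.13 to 2.14). With the letters as a block they were -0.03 and 0.12, and without control A they were -0.33 and -0.19, so no direction is given for KDR. TAT minus gp120 was -0.15 (interval -1.61 to 1.32).

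FLT1 at base 846 read -3.14, -3.56 and -2.86 on TAT arrays and -3.64, -2.62 and -2.61 on gp120 arrays, against -3.65 and -3.55 on control arrays. gp120 B and C stood highest, and gp120 A was at the level of the controls. The difference was 0.41 (SE 0.37, interval -0.45 to 1.27) for TAT minus control and 0.64 (SE 0.37, -0.21 to 1.501) for gp120 minus control (limma adjusted p = 1 and 0.966). gp120 B and C are the arrays of the other scan, and within the scan of the other 6 arrays gp120 minus control was -0.04, from gp120 A alone. TAT minus gp120 was -0.23 over all arrays and 0.45 within that scan. The second FLT1 probe read -4.65 on TAT C and -6.81 to -5.37 on the other 7 arrays.

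Endothelial markers were mixed beside KDR and FLT1. VWF, EMCN and ESAM were among the 6 detected on all 8 arrays, but CDH5, the cadherin of endothelial junctions, was on none. Their summed level was 3.27 to 3.64 on TAT arrays and 3.13 to 3.81 on gp120 arrays, against 3.07 and 3.48 on control arrays. On each protein's arrays and on controls the A array had the lowest sum, as KDR did on TAT and control arrays. The part of endothelial cells in the values of KDR and FLT1 was not tested. Genes most like KDR in pattern were ZNF527 (r 0.989), CTNNBIP1 (0.984) and LAMTOR4 (0.981), and those most like FLT1 were RUVBL1 (0.971), SVIL (0.967) and TUBB3 (0.965).

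GRIN1, the NMDA receptor subunit without which the channel does not form, could not be read, since no probe carries its name or identifier. 1 unnamed probe is described in the files as similar in part to mouse NMDA receptor 1, and it was well above background on all 8 arrays, but it is not taken as GRIN1. Of its partners, GRIN2A was well above background on no array and GRIN2B on gp120 A alone, where it read -0.91, against -7.56 to -6.13 elsewhere. GRIN2D, a further glutamate-binding subunit, was detected on 4 arrays. Of 6 genes of the NMDA list with a probe, 3 had none well above background on any array.

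Over all 14 receptor probes that passed the filter on dim probes, of 21 in all, 0 passed an adjusted p of 0.05 in limma in any of the 3 comparisons, with or without the letters as a block. The same holds for all 31548 probes tested, of which 0.0% passed in each comparison. At an unadjusted p under 0.05, 434 probes (1.38%) passed for TAT minus control, 1336 (4.23%) for gp120 minus control and 1245 (3.95%) for TAT minus gp120, among them 0 receptor probes. With the letters as a block these counts were 1312 (4.16%), 2336 (7.4%) and 3211 (10.2%). They held 3 receptor probes for TAT minus control (CD4 base 2901, LRP1 base 14410 and SDC2 base 940), 1 for gp120 minus control (CD4 base 2901) and 1 for TAT minus gp120 (SDC2 base 940). These probes are named after their values were seen.

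Groups rarely separated. In 0 of the 14 receptor probes were all TAT arrays above both controls (5.46% of all probes) or below both (8.69%), and in 0 were all TAT arrays above all gp120 arrays (3.33%) or below them (4.6%), while gp120 lay above both controls in 1, SDC4 base 723, and below both in 0.

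By direction alone, 5 of 14 receptor probes were higher in both same-letter pairs of TAT against control, where 20.3% of all probes were, and 0 were lower in both, where 28.6% were. For gp120 against control 6 were higher in both pairs, against 24.5% of all probes, and 1 was lower, against 24.8%. For TAT against gp120 4 were higher in all 3 pairs, against 13.5% of all probes, and 1 was lower, against 20.3%. Since probes of 1 gene share their target, these counts are not counts of independent genes. The median difference of the 14 was 0.28 for TAT and 0.14 for gp120 against control, beside -0.02 and 0.00 over all probes, and -0.06 for TAT minus gp120, beside -0.03. The 95% intervals had half-widths of 0.53 to 1.64 against control, with a median of 0.82, which is the size of change that 2 or 3 arrays a group leave undecided.

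**Figure D4:**
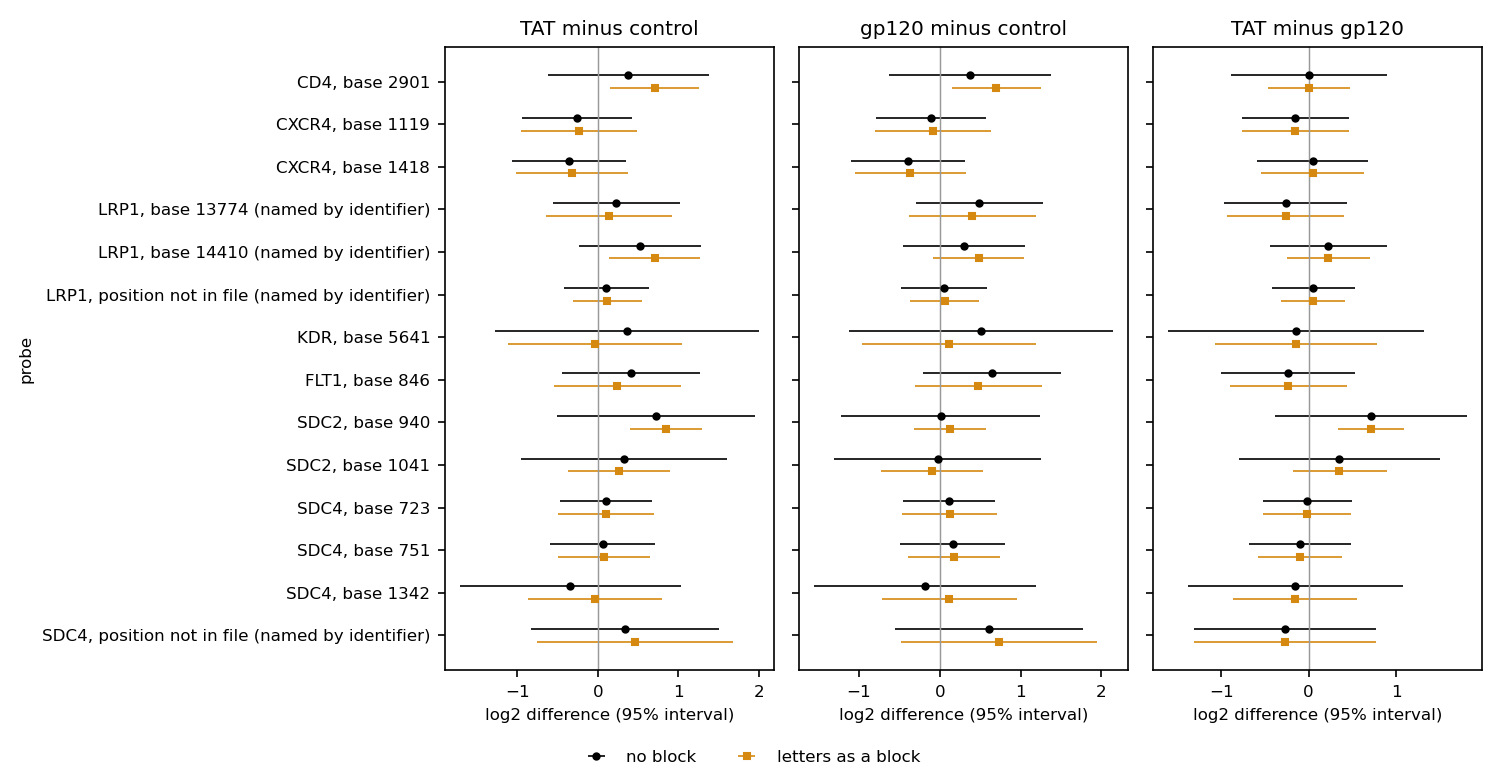
Log2 differences of the 14 receptor probes tested, with 95% intervals, without (black) and with (orange) the letters as a block, for TAT minus control, gp120 minus control and TAT minus gp120. All black intervals cross 0, and the orange ones that do not are CD4 base 2901, LRP1 base 14410 and SDC2 base 940.

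Other molecules of the same pathways were taken from 6 lists with 72 entries, of which 66 had a probe and 51 were tested, and 0 passed in any comparison (limma). At an unadjusted p under 0.05, 1 passed for TAT minus control, 3 for gp120 minus control and 2 for TAT minus gp120, of which 1, 2 and 2 belong to a list that is not reported here. The 17 tested ligands and partners of the receptors had a median difference of 0.23 for TAT minus control (12 above 0) and 0.17 for gp120 minus control (12 above 0). CXCL12, the ligand of CXCR4, read -0.80, -0.41 and -0.33 on TAT arrays and -0.85, -0.24 and -0.40 on gp120 arrays, against -1.02 and 0.23 on control arrays, with differences of -0.12 (SE 0.39) and -0.10 (SE 0.39). Its arrays were again lowest in letter A of every group. VEGFA, the ligand of KDR and FLT1, differed by 0.02 (SE 0.21) for TAT and -0.20 (SE 0.21) for gp120. PGF, which binds FLT1 and not KDR, read -3.56, -0.52 and -1.58 on TAT arrays and -4.64, -1.90 and -1.55 on gp120 arrays, against -3.84 and -0.90 on control arrays, so its A arrays stood apart in every group. NRP1, the VEGF coreceptor, differed by 0.44 (SE 0.29) and 0.20 (SE 0.29), and LRPAP1, the chaperone of LRP1, by 0.31 (SE 0.43) and 0.19 (SE 0.43).

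Of other cell surface molecules that bind TAT, 10 of 12 were tested, with medians of 0.03 for TAT and 0.09 for gp120 against control. The integrin subunits ITGA5 and ITGB1 differed from control by 0.00 and 0.06 for TAT and by 0.08 and 0.10 for gp120. ITGAV read 4.12, 4.61 and 4.12 on TAT arrays and 3.69, 4.08 and 3.97 on gp120 arrays, against 4.33 and 4.58 on control arrays. All 3 gp120 arrays were below both controls, a separation that 7.74% of all probes show, with a difference of -0.54 (SE 0.26, limma adjusted p = 0.966). The other syndecans, SDC1 and SDC3, differed by 0.27 (SE 0.40) and 0.37 (SE 0.39) for TAT and by 0.10 (SE 0.40) and 0.64 (SE 0.39) for gp120. Of 16 genes of heparan sulfate synthesis and editing on the array 13 were tested, with medians of 0.13 and 0.10. EXT1, which builds the chain, differed by -0.10 and -0.02, and NDST1, which starts its sulfation, by -0.24 and -0.22. Of 8 other gp120-binding or entry molecules on the array, 4 had no probe well above background on any array and 4 were tested. ACKR3, the second receptor of CXCL12, read 0.94, 1.58 and 1.49 on TAT arrays and 1.17, 1.66 and 1.098 on gp120 arrays, against 0.57 and 1.41 on control arrays, a difference of 0.35 (SE 0.35) and 0.32 (SE 0.35).

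The patterns most like the remaining receptors, by Pearson r over the 8 arrays among 11012 genes and as a description only, were those of TLNRD1 (0.957), CRELD1 (0.956) and TMEM82 (0.954) for CD4. For LRP1 they were ANKRD37 (0.979), ENG (0.968) and JUN (0.968), and for SDC4 EIF1AX (0.942), ETS1 (0.92) and ERRFI1 (0.919). All genes share the same arrays and letters.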

How the data were processed

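The scanner files hold 1-dye intensity values, which per the file headers came from Agilent Feature Extraction 11.5.1.1 under the authors' protocol GE1_1105_Oct12. These are background-subtracted and not scaled between arrays. The authors also deposited a table of log2 values, 1 per gene name and array, and how it was made was not given in the sources used here. After a shift per array it equals the mean of spots well above background for gp120 B and C (100.0% of names within 0.02, r 1.0), whereas for the other 6 arrays 30.0% to 33.3% did (r 0.991 to 0.9936). Its scale and direction follow from that, and the processing of those 6 arrays stays unknown. Column medians were -3.26, -3.21 and -3.25 (TAT A to C), -3.25, -3.18 and -3.33 (gp120 A to C) and -3.2 and -3.3 (control A and B).

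The processed signal was put on the log2 scale and reduced by the array's 75th percentile. Spots that are controls or outliers (4 to 37 per array) were left out, saturated spots numbered 0, and repeated spots were averaged. Between 55.46% and 64.62% of an array's spots were well above background. Probes with that flag on every array of 1 group or more (31591) and with no missing value (31548) were fitted with limma 3.58.1 in R 4.3.3 (lmFit, eBayes, all 8 arrays, no block, two-sided, Benjamini-Hochberg over all probes, threshold 0.05). Scripts were tested on simulated data. The number of arrays limits the precision.

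Letters pair most of the arrays. Deviations from group means correlated at 0.323 to 0.703 over 7 same-letter pairs and at -0.592 to 0.403 over 14 other pairs. Control B was an exception, at 0.403 with TAT C and 0.364 with gp120 C, but 0.323 with TAT B and 0.326 with gp120 B. Deviations cancel within a group, which in part fixes the negative values in advance. The 2 control arrays mirror each other in this measure.

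Probes were named by the symbol in the files (31002), by accession (3594) or by gene ID (900) through the RefSeq gene table, and 15786 had no name. 1 probe stands for a gene where stated, the one with the highest mean signal. Members, lists, markers and the rule for named genes were chosen with earlier results of these data known. The rule names all members with every probe, a fixed set of pathway genes, 3 leading and all undetected markers of each list, and the 3 genes most like each member. Part of what this rule selects is not reported here. Sequences are the array's probe sequences as deposited. Other tools were Python 3.11.15, pandas 2.3.3, numpy 2.4.6 and matplotlib 3.10.9.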

Additional observations from a re-analysis of the deposited data

Results flagged for a closer look

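FLT1 at base 3575 was well above background on TAT C alone, at -4.65, while the other FLT1 probe was so on every array. By the less strict flag for a positive and significant signal, FLT1 at base 3575 passed on 7 arrays and SDC2 at base 1276 on 1. SDC2 at base 1276 was well above background on TAT B alone, at -3.25, and on neither control array. Of all probes, 4.83% were well above background on 1 array only. Both values belong to probes that were not tested.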

How the results depend on the processing

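The 21 differences of the 7 detected receptors were computed under 20 other settings, which gave 420 values. None passed an adjusted p of 0.05 in limma, 57 had the other sign, and 5 of the 21 differences kept their sign in all. The lowest adjusted p was 0.234, for FLT1 gp120 minus control without gp120 A, which leaves only gp120 arrays of the other scan. With the letters as a replicate block (pairing in the text above), KDR TAT minus control was -0.031, and no other sign or call changed. With that block and without control A, chosen after seeing the data, KDR was -0.374 for TAT and -0.229 for gp120 and SDC4 was -0.007 for TAT. With the scan as a block or scan 2 alone, TAT minus gp120 was -0.077 for CD4, -0.334 for CXCR4, -0.135 for LRP1, 0.051 for KDR, 0.452 for FLT1 and 0.038 for SDC4, and gp120 minus control was -0.04 for FLT1 and -0.544 for SDC2. Row 1 alone gave the same 2 gp120 minus control values, -0.933 for KDR TAT minus control, and -0.414 (CXCR4), 0.503 (FLT1) and 0.294 (SDC4) for TAT minus gp120. With the row as a block, KDR was -0.384 for TAT and -0.238 for gp120, and SDC2 -0.469 for gp120. With normexp, TAT minus gp120 was -0.017 for CD4 and 0.002 for SDC4. With the deposited table SDC2 was -0.277 for TAT minus control, -0.09 for gp120 minus control and -0.187 for TAT minus gp120, SDC4 -0.024 for gp120 minus control and 0.066 for TAT minus gp120, and KDR 0.037 for TAT minus gp120. The cause was not tested.

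Leaving out each array in turn, TAT minus control lay at 0.163 to 0.748 (CD4), -0.619 to -0.089 (CXCR4), -0.034 to 0.247 (LRP1), -0.334 to 1.059 (KDR), 0.248 to 0.6 (FLT1), 0.136 to 1.305 (SDC2) and -0.027 to 0.275 (SDC4). gp120 minus control lay at 0.133 to 0.656 (CD4), -0.664 to -0.134 (CXCR4), -0.087 to 0.193 (LRP1), -0.189 to 1.204 (KDR), 0.471 to 0.986 (FLT1), -0.574 to 0.594 (SDC2) and 0.041 to 0.169 (SDC4). TAT minus gp120 lay at -0.277 to 0.374 (CD4), -0.158 to 0.234 (CXCR4), -0.044 to 0.148 (LRP1), -0.581 to 0.503 (KDR), -0.574 to -0.044 (FLT1), 0.392 to 1.114 (SDC2) and -0.146 to 0.156 (SDC4). A lone control array is then assumed to vary like the other groups.

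Of all probes 0 passed in each comparison, but without control A 2 passed for TAT minus control and 1 for gp120 minus control, and without control B 1 and 1 (leaving out other arrays 0, so a range of 0 to 2 and 0 to 1). With the deposited table, which holds gene names in place of probes, 2 names passed for gp120 minus control and 6 for TAT minus gp120. None was a probe that stands for a receptor. Signal near background limits what the dim CD4, KDR, FLT1 and SDC2 probes can show.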
